A study of Mus musculus with 23 samples.

Results

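The cytosolic ribosomal proteins are described here in quadriceps muscle and epididymal fat of mice with and without a pancreatic tumor. Members were all rows of the deposited count tables whose gene symbol names a protein of the small (Rps) or large (Rpl, Rplp) cytosolic ribosomal subunit by symbol pattern, a rule that uses no measured value. The rule found 81 genes in all, 79 of the 12831 genes listed for quadriceps and 81 of the 16962 listed for epididymal fat. The 79 in quadriceps were 32 proteins of the small (40S) subunit, 44 of the large (60S) subunit and 3 of the P stalk of the large subunit, and Rpl10l and Rpl39l were listed only in fat. All members passed the filter on low counts in the tissue where they were listed, as did every other listed gene.

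RNA-seq was done on 23 libraries from male C57BL/6 mice (C57BL/6J in the study's methods), 11 from quadriceps and 12 from epididymal fat, and the mice were 8 weeks old at surgery. No tumor mice (sham surgery, 3 muscle and 4 fat libraries) carried no tumor cells. KPC mice (4 and 4 libraries) carried an orthotopic pancreatic tumor grown from a clone of a mouse cell line with mutant Trp53 and Pdx1-Cre, and KPC IL6KO mice (4 and 4 libraries) carried a clone of that line in which Il6 had been edited with CRISPR/Cas9. Each tumor arm rested on 1 clone, the KPC clone had been transfected without guide RNAs, and the hosts were not edited, so that host cells kept an intact Il6 gene in all 3 groups. Muscle libraries are numbered 1 to 4 and fat libraries 5 to 8. Each library carries a code of its own that no library of the other tissue shares, but the labels do not say whether the codes are animals, so p-values measure the spread between these libraries.

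A cytosolic ribosome is built from ribosomal RNA and a large set of proteins, most of them needed in 1 copy each. Ribosomal protein genes are therefore transcribed together, and their mRNAs typically begin with a C followed by a run of pyrimidines, the terminal oligopyrimidine motif, through which mTORC1 and LARP1 set their translation and stability. In skeletal muscle the number of ribosomes limits how much protein a fiber can make. Muscle also replaces the ordinary large-subunit protein Rpl3 with a muscle paralog, Rpl3l, in mature fibers.

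The bases around the annotated start site are shown for 8 members, to set pyrimidine runs near the start beside the change in level. These are the 4 lowest and the 4 highest in KPC against no tumor quadriceps among those with a RefSeq window. Each line gives the 20 bases before the start and the first 10 bases of the transcript, 5′ to 3′, with the longest run of C or T in capitals (RefSeq, GRCm38.p6).
Rpl3l: cagctgagtgTTCTagctctgtcatttgac
Rps2: tgcgtaggcagtcgagatctcgcgCTTCTT
Rpl41: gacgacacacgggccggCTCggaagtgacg
Rpl39: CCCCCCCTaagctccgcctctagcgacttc
Rps27: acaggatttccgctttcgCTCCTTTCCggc
Rpl22: atcagcgctgCTTCTggaatgttccagctc
Rpl4: agTCTTTCCTTTTCCTgtgggagcagccgg
Rps25: TCCTTTTTTTCCgacatcttagcgaggctg
The windows lie at chr17:24727806-24727835 (Rpl3l, + strand), chr17:24720043-24720072 (Rps2, + strand), chr10:128549159-128549188 (Rpl41, − strand), chrX:37085213-37085242 (Rpl39, − strand), chr3:90213639-90213668 (Rps27, − strand), chr4:152324416-152324445 (Rpl22, + strand), chr9:64173367-64173396 (Rpl4, + strand) and chr9:44407694-44407723 (Rps25, + strand). The longest run was 4 bases in Rpl3l and 3 in Rpl41, against 9 in Rps27, 12 in Rps25 and 14 in Rpl4. In Rps2 it was 6. The printed bases end within the run of Rps2 and begin within those of Rps25 and Rpl39, so these runs may be longer. The run of Rps27 spans the RefSeq start and that of Rps2 lies after it, whereas the other runs printed lie before it. Rpl22 had a run of only 5 and was among the highest members, but its whole window lies upstream of the GENCODE M21 gene, which begins at chr4:152325742. Other members also differ between the annotations. For example, the GENCODE M21 gene begins before the window in Rps2 (chr17:24718116) and Rps25 (chr9:44407139). In Rpl4 it begins inside the printed run (chr9:64173375). Which side of the start a run lies on is therefore uncertain. Rpl39 had a run of at least 8, upstream of the RefSeq start, and was among the lowest.

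RefSeq windows of 300 bases, 250 before and 50 after the start, were found for 60 of the 81 members. A run of at least 8 C or T within 20 bases of the start, read on the transcribed strand, was found in 27 of 60 members (45%) and in 4290 of 27025 windows of all genes (15.9%). The heptamer CCGGAAG or its complement CTTCCGG, the core bound by ETS-family factors, was in 23 of 60 members (38.3%) and in 2469 of all windows (9.14%), and the complement can share bases with a pyrimidine run. Within the family, members with and without each motif had similar medians in KPC muscle. The median log2 FC of KPC against no tumor quadriceps was 0.64 in the 27 members with a run and 0.61 in the 31 without, and 0.55 in the 22 with the heptamer and 0.63 in the 36 without it. These are matches of letters, not mapped start sites.

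Sequencing depth ranged from 19259763 to 74907810 counts a library in quadriceps and from 26306377 to 56308545 in fat. The quadriceps libraries held strong fiber marker expression in every group (8 of 8 markers listed), whereas all 12 fat libraries also held epididymis genes (8 of 8 listed, summed 750 to 88644 CPM) beside adipocyte genes (7 of 7 listed, 1116 to 20061 CPM). The biological coefficient of variation was 22.7% in quadriceps and 63.5% in fat. CPM, the count of a gene per megacount of its library, is relative to the TMM-scaled library size, a scaling that aligns libraries on the bulk of genes, and the 2 tissues were scaled apart.

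The question in muscle was whether ribosomal protein mRNAs differed in cachectic KPC mice and whether they also differed with the Il6-edited tumor clone. The study reported larger tumors in KPC than in KPC IL6KO mice, unchanged muscle weights in the latter, and no correlation of tumor mass with muscle mass. Loss of Il6, clone, tumor mass and wasting therefore cannot be told apart between these 2 groups. Most of the family was higher in KPC quadriceps than in both other groups by about 1.5-fold, whereas the median member of the KPC IL6KO group differed from no tumor by a log2 FC of 0.00. The members took 1.32%, 1.36% and 1.35% of all counts in the 3 no tumor libraries, a mean of 1.34% ± 0.0192 (SD, n = 3). They took 1.56%, 1.49%, 2.24% and 1.58% in KPC, a mean of 1.72% ± 0.353 (n = 4), and 1.23%, 1.26%, 1.3% and 1.27% in KPC IL6KO, a mean of 1.27% ± 0.0314 (n = 4). Every KPC library lay above every library of the other groups, every KPC IL6KO library lay slightly below every no tumor library, KPC 3 stood apart above the rest, and without it the KPC mean was 1.54% ± 0.05 (n = 3). Binomial 95% intervals (Wilson) of these shares were at most ±0.00687 percentage points wide in either tissue and cover counting error only.

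**Figure D1:**
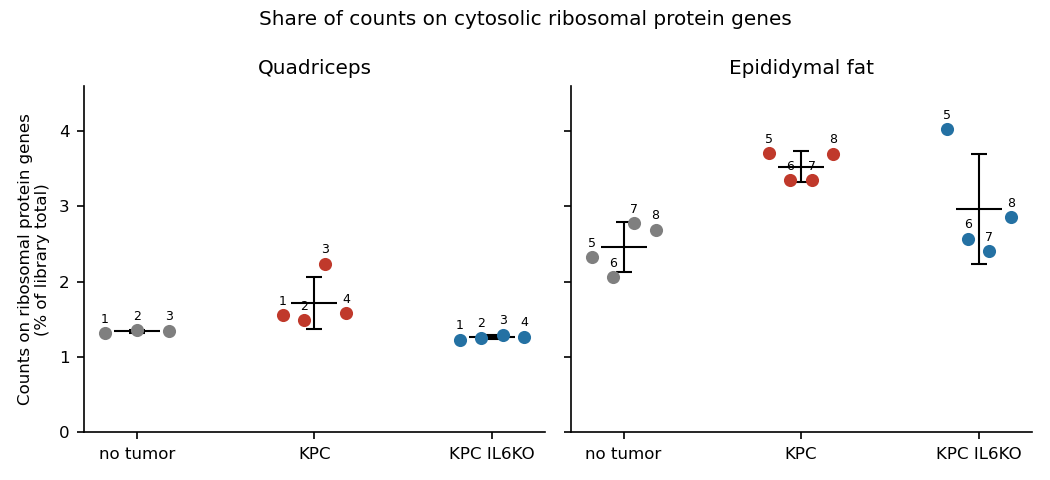
Percent of each library's counts on cytosolic ribosomal protein genes (y axis) in the 3 groups (x axis) of each tissue, 1 point per library, with the group mean and SD. In quadriceps the KPC libraries lie between 1.49% and 2.24%, above all no tumor (1.32% to 1.36%) and KPC IL6KO (1.23% to 1.3%) libraries, and in fat KPC IL6KO 5 lies at 4.03%, apart from the 2.41% to 2.86% of its group.

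The balance of the subunits was close in all groups. The ratio of 60S to 40S counts was 1.52 to 1.54 in no tumor, 1.51 to 1.53 in KPC and 1.54 to 1.55 in KPC IL6KO quadriceps. A few very abundant muscle genes also took fewer counts in KPC, where the 10 most counted genes held 18.8% to 22.6% of a library against 25.6% to 29.5% in no tumor and 27.8% to 29.6% in KPC IL6KO. With those 10 genes left out, the members held 1.8% to 1.91% in no tumor, 1.92% to 2.76% in KPC and 1.74% to 1.82% in KPC IL6KO, so that KPC still did not overlap with the other groups, by a narrow margin. In whole tissue, fewer cells of a type and less RNA per cell cannot be told apart.

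Genes were called where the edgeR quasi-likelihood test gave a Benjamini-Hochberg FDR of at most 0.05 over all genes of the tissue and the fold change (FC) was at least 1.5. Against no tumor, 41 of 79 members (51.9%) rose in KPC quadriceps and 1, Rpl3l, fell, while 37 did not pass. Among all genes tested 26.7% were called higher and 29% lower, so the members' share was above the background for a rise and at 1.27% far below it for a fall. The median log2 FC of the members was 0.61 (1.52-fold, interquartile range 0.45 to 0.74, median SE 0.15) beside −0.03 over all genes, and 77 of 79 were above 0. Because that median sits at the fold minimum, the count of calls turns on small differences, and with FDR alone 67 members were higher and 1 lower, against 33.4% and 34.2% of all genes. The libraries of the 2 groups did not overlap for 68 members, all KPC values higher, and for 1 all lower, against 32.3% and 33% of all genes.

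**Figure D2:**
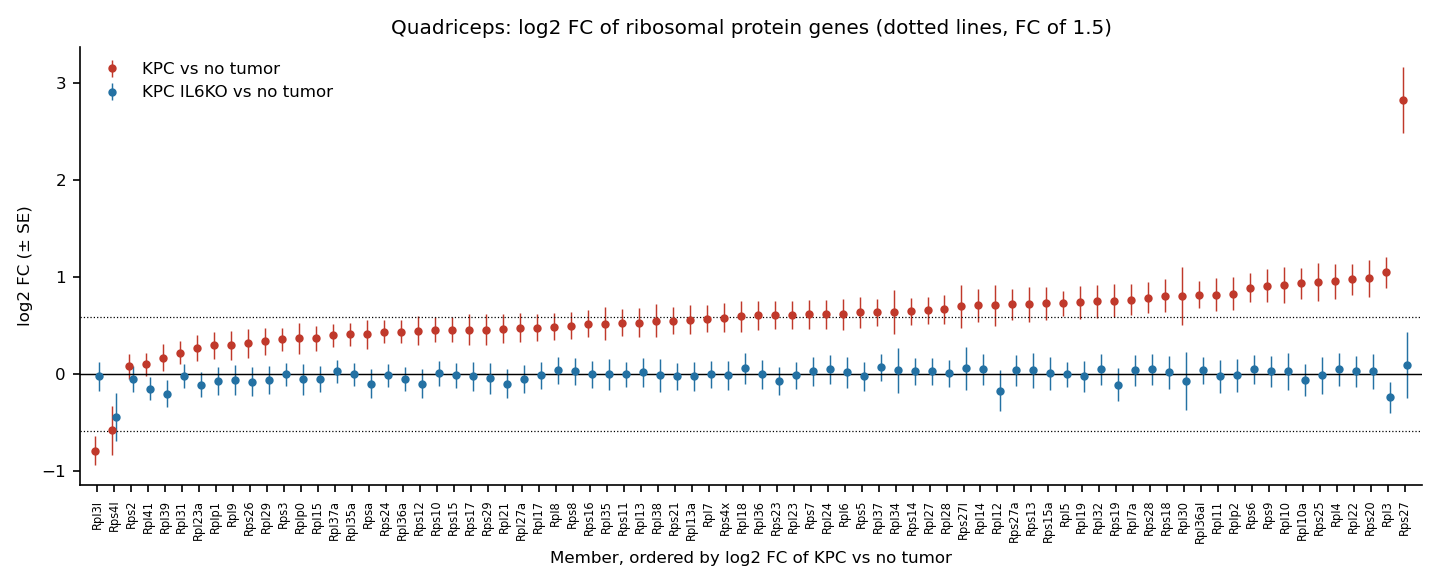
log2 FC with its SE (y axis) of 78 of the 79 quadriceps members (x axis, ordered by KPC vs no tumor) for KPC vs no tumor and KPC IL6KO vs no tumor, with dotted lines at an FC of 1.5. Most KPC points lie near a log2 FC of 0.61, from Rpl3l at −0.79 to Rps27 at 2.83, whereas the KPC IL6KO points lie between −0.44 and 0.09.

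The 40S and 60S proteins were alike, with 16 of 32 members of the small subunit called higher (median log2 FC 0.60) and 25 of 47 of the large subunit with its stalk (median 0.61). Rps6, the small-subunit protein phosphorylated by S6 kinases, measured 93.9, 94.0 and 99.7 CPM in no tumor, 168, 143, 236 and 162 in KPC and 96.5, 96.0, 105 and 99.9 in KPC IL6KO quadriceps. Its KPC libraries were all above the others, with a log2 FC of 0.89 (SE 0.15, FDR = 3.0e-04) against no tumor. Rps27a, which is made as a fusion with ubiquitin, rose by a log2 FC of 0.72 (SE 0.16, FDR = 0.0019). Rpsa, a small-subunit protein that is also known as a laminin receptor, was higher by 0.41 (SE 0.15, FDR = 0.029) and stayed under the fold minimum.

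In the large subunit, Rpl5 and Rpl11, which carry the 5S ribosomal RNA into the ribosome and can bind Mdm2 when free, both rose, by a log2 FC of 0.73 (SE 0.13, FDR = 4.9e-04) and 0.82 (SE 0.17, FDR = 0.0012). Rpl11 measured 119, 114 and 129 CPM in no tumor, 201, 171, 299 and 181 in KPC and 117, 119, 122 and 115 in KPC IL6KO quadriceps, without overlap between KPC and the rest. Rpl13a, known for its role outside the ribosome in silencing inflammatory mRNAs, was higher by 0.56 (SE 0.15, FDR = 0.0068), under the fold minimum. The P stalk recruits the elongation factors, and its 3 proteins were not alike in their calls. Rplp2 rose by 0.83 (SE 0.17, FDR = 0.0011), whereas Rplp0 had a log2 FC of 0.37 (SE 0.16, FDR = 0.06) and Rplp1 of 0.30 (SE 0.14, FDR = 0.082).

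Rplp0 and Rpl13a are in wide use as reference genes for quantitative PCR. Rplp0 measured 571, 560 and 619 CPM in no tumor, 728, 585, 1018 and 681 in KPC and 557, 584, 570 and 538 in KPC IL6KO quadriceps. KPC 2 lay among the no tumor values and the other KPC libraries above them. Against KPC IL6KO the log2 FC of Rplp0 was 0.42 (SE 0.15, FDR = 0.024), and that of Rpl13a was 0.59 (SE 0.14, FDR = 0.0031).

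The members furthest from the family were Rps27 and Rpl3 above it and Rpl3l, Rps4l and Rps2 below it. Rps27, a zinc-binding protein of the small subunit, measured 0.416, 0.372 and 0.615 CPM in no tumor, 3.36, 1.93, 4.63 and 2.94 in KPC and 0.414, 0.421, 0.598 and 0.48 in KPC IL6KO quadriceps. Its log2 FC was 2.83 (SE 0.34, FDR = 2.6e-05), the largest of the family, on few reads, from 12 to 283 counts a library. Of the 75-base windows of its transcript, 98.5% also occur in transcripts of other genes, and only uniquely mapped reads were counted, so its level is uncertain. Rps27l, its paralog, was counted at 40.2 to 47.3 CPM in no tumor and 50.6 to 107 in KPC, with a log2 FC of 0.70 (SE 0.22, FDR = 0.013).

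Rpl10a, of the large subunit, was among the next highest, with a log2 FC of 1.00 (SE 0.15, FDR = 9.6e-05) against KPC IL6KO. At the other end Rps2 measured 480, 429 and 458 CPM in no tumor, 457, 404, 595 and 472 in KPC and 437, 465, 443 and 411 in KPC IL6KO quadriceps. All 3 groups of Rps2 overlapped, and its log2 FC was 0.08 (SE 0.13, FDR = 0.59) against no tumor, with a sign that turned under other scalings (−0.25 with upper quartile factors, −0.12 with library totals) and without KPC 3 (−0.04). Rps4l, annotated in GENCODE M21 as a transcribed processed pseudogene, had −0.58 (SE 0.25, FDR = 0.058), and Rpl39 had 0.17 (SE 0.14, FDR = 0.31).

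The single member that fell was the muscle paralog. Rpl3l (chr17:24727820-24736143, + strand, GRCm38) measured 604, 552 and 614 CPM in no tumor, 314, 386, 256 and 407 in KPC and 580, 646, 559 and 544 in KPC IL6KO quadriceps. Every KPC library was below every other library, and the log2 FC was −0.79 (SE 0.15, FDR = 6.4e-04) against no tumor and −0.77 (SE 0.14, FDR = 4.7e-04) against KPC IL6KO. Its partner Rpl3 (chr15:80077791-80091868, − strand, GRCm38) measured 41.6, 53.3 and 42.7 CPM in no tumor, 107, 77.0, 117 and 80.1 in KPC and 40.4, 34.3, 39.2 and 41.4 in KPC IL6KO. Rpl3 thus moved the opposite way, all KPC libraries above the rest, by a log2 FC of 1.05 (SE 0.16, FDR = 1.6e-04) and 1.30 (SE 0.15, FDR = 1.9e-05).

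Divided by transcript length, Rpl3l made up 93.4%, 91.0% and 93.4% of the summed CPM per kb of the pair in no tumor quadriceps, 74.2%, 83.1%, 68.3% and 83.3% in KPC and 93.4%, 94.9%, 93.3% and 92.8% in KPC IL6KO. The means were 92.6% ± 1.37 (SD, n = 3), 77.2% ± 7.33 (n = 4) and 93.6% ± 0.888 (n = 4). By an exact two-sided permutation test over libraries, KPC differed from KPC IL6KO with p = 0.029 and from no tumor with p = 0.057, each the smallest p that the group sizes allow, and KPC IL6KO differed from no tumor with p = 0.57. Over the 9 tests of this kind the Benjamini-Hochberg adjusted values of the exact tests were 0.073, 0.073 and 0.64. With these group sizes no adjusted value could have reached 0.05, so that limit decides nothing here. None of the 75-base windows of Rpl3l occur in another gene's transcript, while 83.2% of those of Rpl3 do, in 8 pseudogenes, so that Rpl3 may be undercounted beside Rpl3l by a factor that these files do not give.

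**Figure D3:**
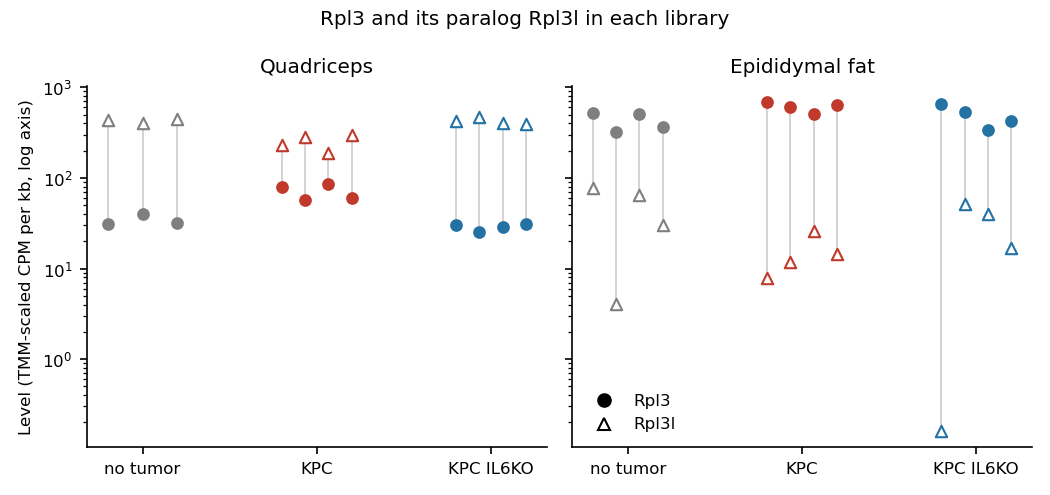
Level of Rpl3 (filled circles) and Rpl3l (open triangles) in TMM-scaled CPM per kb (y axis, log scale) in each library of the 3 groups (x axis), with a line joining the pair of a library. In quadriceps Rpl3l is above Rpl3 in every library, by 2.15 to 5.00 times in KPC against 10.2 to 14.3 times in no tumor and 12.9 to 18.5 times in KPC IL6KO, and in fat Rpl3 is above Rpl3l in every library.

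Shares within the other pairs of paralogs were computed in the same way. Rps27l held 98.5% of its pair with Rps27 per kb in no tumor (SD 0.276, n = 3) and 93.7% in KPC (SD 1.18, n = 4). Of the transcript windows of Rps27, 98.5% also occur in transcripts of other genes, against 12% of those of Rps27l. Rps27 may therefore be undercounted beside Rps27l by an unknown factor, so the level of this share is uncertain. Its lower value in KPC rests on few Rps27 reads, from 12 to 283 counts a quadriceps library. Rpl36al, an autosomal retrocopy of X-linked Rpl36a, held 50.6% of its pair in no tumor (SD 0.511), 57.1% in KPC (SD 1.63) and 52.2% in KPC IL6KO (SD 1.09). Both genes of that pair were higher in KPC, Rpl36al by a log2 FC of 0.82 (SE 0.14, FDR = 3.5e-04) and Rpl36a by 0.44 (SE 0.12, FDR = 0.007). For both pairs the exact permutation tests of KPC against either group were at the smallest p the group sizes allow, with an adjusted value of 0.073 for each. The same held for Rpl36al in KPC IL6KO against no tumor (exact permutation p = 0.057, adjusted 0.073), a difference of 1.57 percentage points. None could have passed 0.05 after adjustment with these group sizes.

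In KPC IL6KO quadriceps no member was called against no tumor by the edgeR quasi-likelihood test, by the edgeR likelihood ratio test or by DESeq2, and no member had an unadjusted p under 0.05 by any of them. The smallest FDR was 0.88 by the quasi-likelihood test, 0.95 by the likelihood ratio test and 0.85 by DESeq2. Among all genes 0% were called higher and 0% lower, 6.91% had an unadjusted p under 0.05, and DESeq2 called 0.234% higher. The study, also with edgeR and these thresholds, did report genes called in both directions in this comparison. The members' median log2 FC was 0.00 (interquartile range −0.05 to 0.03, range −0.44 to 0.09, median SE 0.15), with 36 above 0 and 43 below. All KPC IL6KO values were below all no tumor values for 4 members (Rpl3, Rpl41, Rpl23a and Rpsa), against 8.01% of all genes, with log2 FC from −0.24 to −0.10.

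Set directly against KPC IL6KO, 40 of 79 members were higher in KPC quadriceps and 1, again Rpl3l, was lower, against 26.4% and 27.3% of all genes. With FDR alone 74 were higher and 1 lower, against 34.4% and 33.6%. The median log2 FC was 0.59 (1.5-fold, interquartile range 0.47 to 0.74, median SE 0.14) beside −0.01 over all genes, and the libraries did not overlap for 74 members higher and 1 lower, against 31.2% and 30.8%. The 3 comparisons share libraries and are not independent of each other.

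Most members put the same KPC libraries highest and lowest. KPC 3 had the highest value of its group for 77 of 79 members and KPC 2 the lowest for 71. Without KPC 3, the calls fell to 18 higher and 1 lower against no tumor and to 19 higher and 1 lower against KPC IL6KO, with median log2 FC of 0.43 and 0.42. In the same fits 65 and 71 members passed the FDR alone, and 75 and 77 of 79 stayed above 0. The scaling also set the count. Upper quartile factors gave 8 members higher in each comparison, with a member median of 0.27 and an all-gene median of −0.36 against no tumor and −0.32 against KPC IL6KO. Relative to the median of all genes, the members' median stayed 0.47 to 0.73 higher against no tumor and 0.43 to 0.68 higher against KPC IL6KO in every scaling, tool and left-out library tried.

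Many members share sequence with pseudogenes. Of 80 members matched to GENCODE M21, 76 shared at least 1 window of 75 bases with another gene's transcript and 75 with a pseudogene, with a median of 50.1% of windows shared. The 38 quadriceps members with at most 50% of windows shared had a median log2 FC of 0.56 against no tumor, with 18 called higher and 1 lower. The 40 members over 50% had a median of 0.62, with 23 called higher, and the 10 members under 10% had a median of 0.60, with 5 higher and 1 lower. Across 78 members Spearman's rho between log2 FC and the share of windows was 0.10, a description across genes that share libraries.

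The proteins of the mitochondrial ribosome were called in both directions. Of 77 mitochondrial ribosomal protein genes (Mrpl and Mrps), 13 were called higher and 15 lower in KPC against no tumor quadriceps, with a median log2 FC of 0.01. These are 16.9% and 19.5% of the list, beside 26.7% and 29% of all genes. Against KPC IL6KO the count was 11 higher and 13 lower, with a median of 0.00, beside 26.4% and 27.3% of all genes. Their summed share of counts was 0.309% to 0.341% in no tumor, 0.251% to 0.327% in KPC and 0.303% to 0.336% in KPC IL6KO, and these ranges overlap.

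Genes that build and drive ribosomes were counted from lists, to be read beside the 26.7% of all genes called higher and the 29% called lower in this comparison. Of 111 listed genes for ribosome assembly and ribosomal RNA processing, 90 rose and 1 fell in KPC against no tumor quadriceps, with a median log2 FC of 1.05. Ncl, the abundant nucleolar protein nucleolin, rose by 1.86 (SE 0.19, FDR = 1.0e-05), and Dkc1, the pseudouridine synthase of the nucleolus, was the one that fell, by −0.72 (SE 0.16, FDR = 0.0019). Of 15 genes for RNA polymerase I and ribosomal DNA transcription 10 rose (median 0.75), among them the rDNA factor Ubtf with 0.87 (SE 0.14, FDR = 1.9e-04). Of 41 initiation factors 32 rose (median 1.12), among them the cap-complex scaffold Eif4g1 with 0.77 (SE 0.12, FDR = 1.4e-04). Without KPC 3 these counts were 86, 9 and 30, and Dkc1 was no longer called.

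Of 11 elongation factors 4 rose (median 0.50), namely Eef2, which moves the ribosome along the mRNA, with 1.16 (SE 0.17, FDR = 1.1e-04), Eif5a with 0.76, Eef1a2 with 0.74 and Eef1a1 with 0.59. Without KPC 3 only 2 of the 11 were called, so that this count rests in part on that library. Of 20 regulators and kinases of ribosomal protein mRNAs 11 rose and 3 fell (Mycn, Habp4 and Rps6ka1). Larp1, which binds the pyrimidine motif, rose by 1.29 (SE 0.14, FDR = 1.4e-05). Of 6 listed ribosomal proteins whose symbols fall outside the rule, 3 rose: Fau with 0.77 (SE 0.15, FDR = 6.6e-04), Gnb2l1 (Rack1) with 0.70 (SE 0.15, FDR = 0.0013) and Rpl22l1, the paralog of Rpl22, with 1.24 (SE 0.23, FDR = 4.8e-04). Rps3a1 had 0.37 (SE 0.15, FDR = 0.041) and Rpl7l1 −0.26 (SE 0.16, FDR = 0.17). In KPC IL6KO against no tumor none of the genes of these 6 lists were called.

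Markers of other cells moved with the groups in quadriceps. Neutrophil markers (4 of 5 listed, all 4 called higher in KPC against no tumor) summed to 0.359 to 0.779 CPM in no tumor, 4.5 to 21.8 in KPC, where KPC 3 was the highest, and 2.14 to 4.13 in KPC IL6KO. Sums of macrophage markers (6 of 6 listed) overlapped at 81.5 to 114, 36 to 134 and 80.7 to 128 CPM, but single markers moved in both directions. Of these 6, 1 was called higher and 2 lower in KPC against no tumor (median log2 FC −0.62), and 1 and 3 against KPC IL6KO. Of 5 endothelium markers, 0 were called higher and 2 lower in KPC against no tumor (median −0.33). Fibroblast markers (5 of 5) summed to 1194 to 1315 CPM in no tumor, 174 to 288 in KPC and 617 to 976 in KPC IL6KO, satellite cell markers (4 of 4) to 26.9 to 34, 4.6 to 9.05 and 26.5 to 43 CPM, and fiber markers to 163477 to 200541, 129183 to 149780 and 185511 to 201123 CPM. Alas2, the only red cell marker of 5 that is listed, measured 1.95 to 2.55, 4.47 to 17.6 and 3.75 to 6.43 CPM and rose by a log2 FC of 2.41 in KPC against no tumor. None of the 7 T and B cell genes or the 8 epididymis genes were listed in the quadriceps table. The part of these cells in the ribosomal protein result was not tested.

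**Figure D4:**
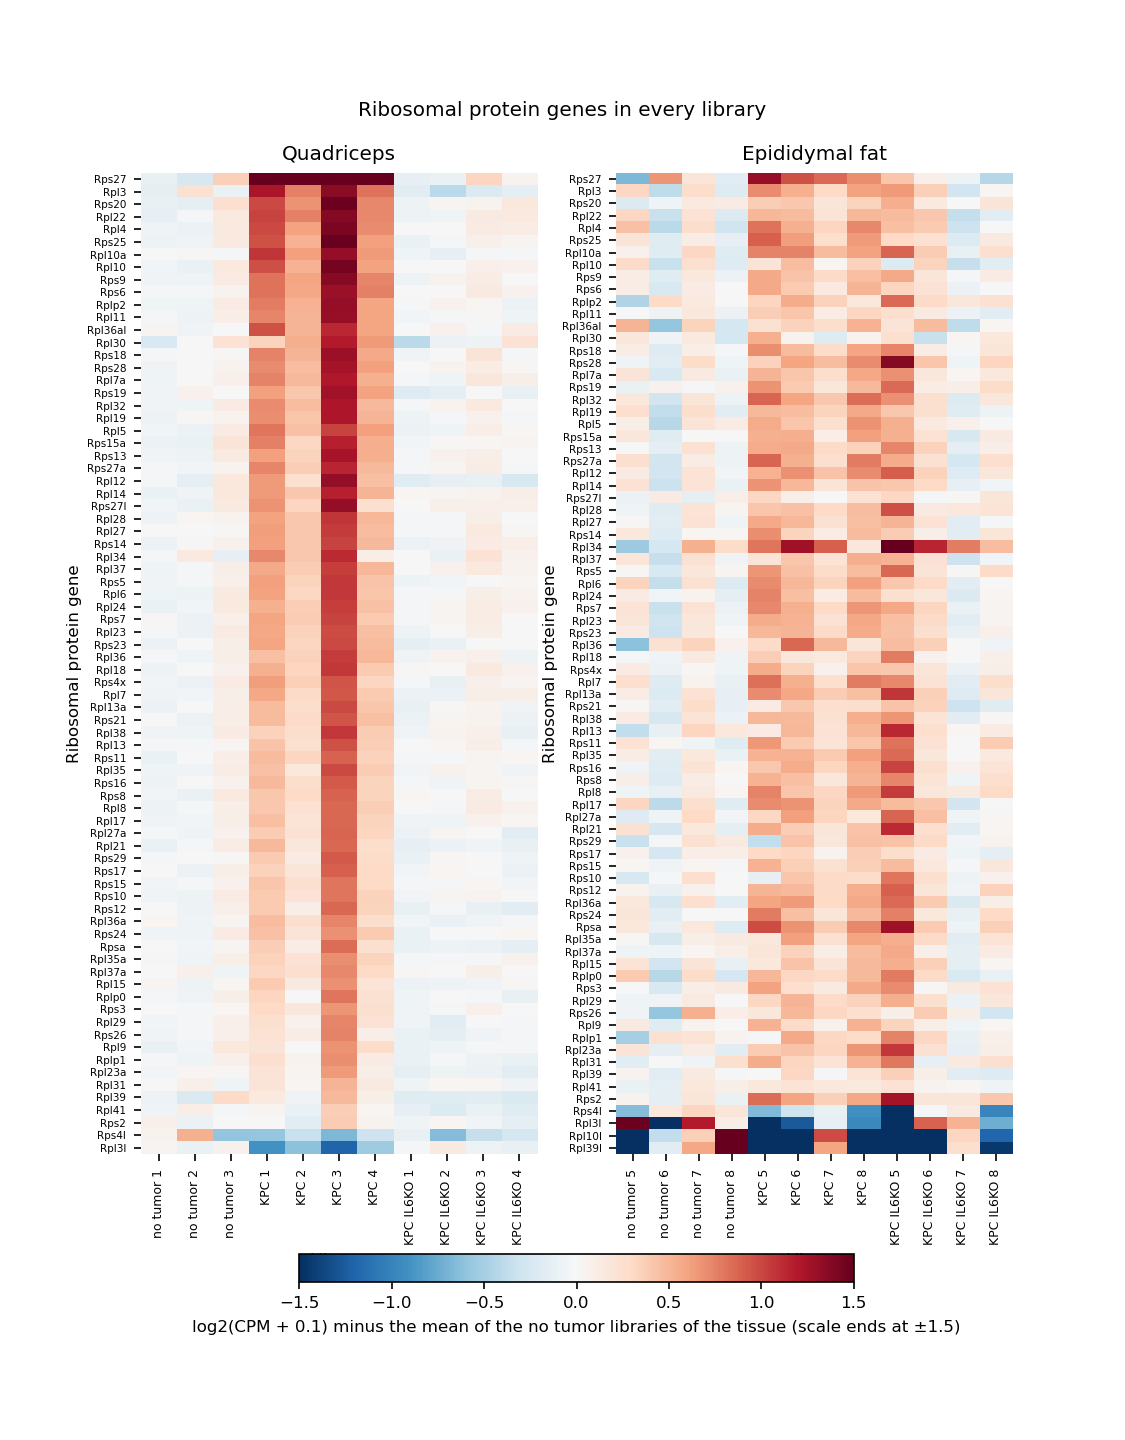
Heat map of log2(CPM + 0.1) minus the mean of the no tumor libraries of the tissue (color, scale ends at ±1.5), with 1 row per ribosomal protein gene (1 gene is not drawn) and 1 column per library, rows ordered by the quadriceps log2 FC of KPC vs no tumor. The KPC columns of quadriceps are above the no tumor mean for nearly every row, most in KPC 3, and in fat the KPC columns and KPC IL6KO 5 are above it for most rows, while Rpl3l, Rpl10l and Rpl39l vary widely within groups.

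In epididymal fat the question was the same, and the members were again higher in KPC than in no tumor, but no single member passed the test. They took 2.33%, 2.06%, 2.78% and 2.69% of counts in no tumor fat, a mean of 2.46% ± 0.335 (SD, n = 4), and 3.71%, 3.35%, 3.35% and 3.7% in KPC, a mean of 3.53% ± 0.206 (n = 4). All KPC values were above all no tumor values. The KPC IL6KO libraries took 4.03%, 2.57%, 2.41% and 2.86%, a mean of 2.97% ± 0.731 (n = 4), with KPC IL6KO 5 above every KPC library and the other 3 below them. With the 10 most counted genes left out, the shares were 2.26% to 3.09% in no tumor, 3.69% to 4.04% in KPC and 2.57% to 4.16% in KPC IL6KO.

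Against no tumor, 0 of 81 members were called in KPC fat by the edgeR quasi-likelihood test, with a smallest FDR of 0.28, and 0% of all genes were called higher and 0% lower. The study, also with edgeR and these thresholds, did report called genes in both tumor groups of fat against no tumor. At an unadjusted p under 0.05 there were 29 members (35.8%), all higher, against 12.2% of all genes. DESeq2 called 2 members, Rpl32 and Rps25, and 2.15% of all genes higher, and the likelihood ratio test called 0 with 4 at an unadjusted p under 0.05. The median log2 FC of the members was 0.43 (1.35-fold, interquartile range 0.32 to 0.51, median SE 0.21) beside −0.10 over all genes, and 77 of 81 were above 0. All KPC values were above all no tumor values for 43 of 81 members (53.1%), against 6.52% of all genes.

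Rps25, a small-subunit protein needed by some viral internal ribosome entry sites, measured 333, 256, 314 and 266 CPM in no tumor fat, 542, 448, 346 and 451 in KPC and 358, 339, 253 and 320 in KPC IL6KO. KPC was above no tumor in every library, by a log2 FC of 0.61 (SE 0.20, FDR = 0.28). Rpl32, of the large subunit, measured 393, 291, 400 and 334 CPM in no tumor, 645, 532, 465 and 629 in KPC and 567, 416, 306 and 394 in KPC IL6KO, with 0.68 (SE 0.23, FDR = 0.3) against no tumor. The highest were Rps27 with 0.94 (SE 0.41, FDR = 0.39) and Rpl34 with 0.82 (SE 0.44, FDR = 0.49). Rps27 and Rpl34 were counted at 0.655 to 3.56 CPM across fat libraries.

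KPC IL6KO fat lay between the other groups on average. Against no tumor 0 members were called by edgeR or DESeq2 (0% of all genes higher and 0% lower by edgeR, 1.66% higher by DESeq2), and 2 members, Rps28 and Rpl34, had an unadjusted p under 0.05, against 9.34% of all genes. DESeq2 gave 4 members under that p and the likelihood ratio test 1. The median log2 FC was 0.21 (median SE 0.21) beside −0.03 over all genes, with 75 of 81 above 0, and 1 member did not overlap and was higher, against 1.52%. KPC IL6KO 5 had the highest value of its group for 74 of 81 members, and without it the median was 0.07, whereas without KPC IL6KO 7 it was 0.32.

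Between KPC and KPC IL6KO fat 0 members were called by edgeR or DESeq2 (0% of all genes higher and 0% lower by edgeR, 0.112% higher by DESeq2). The median log2 FC was 0.17 (median SE 0.21) with 71 of 81 above 0, and it was 0.34 without KPC IL6KO 5 and 0.10 without KPC IL6KO 7. Rps25, Rps27 and Rpl24 had an unadjusted p under 0.05, against 6.26% of all genes, while DESeq2 gave 14 members and the likelihood ratio test 1. Rps27 was higher in every KPC library, with a log2 FC of 1.00 (SE 0.41, FDR = 0.74), the 1 member without overlap, against 0.637% of all genes. The lowest were Rpl3l with −0.87 (SE 1.12, FDR = 0.99) and Rpl34 with −0.25 (SE 0.43, FDR = 0.99).

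**Figure D5:**
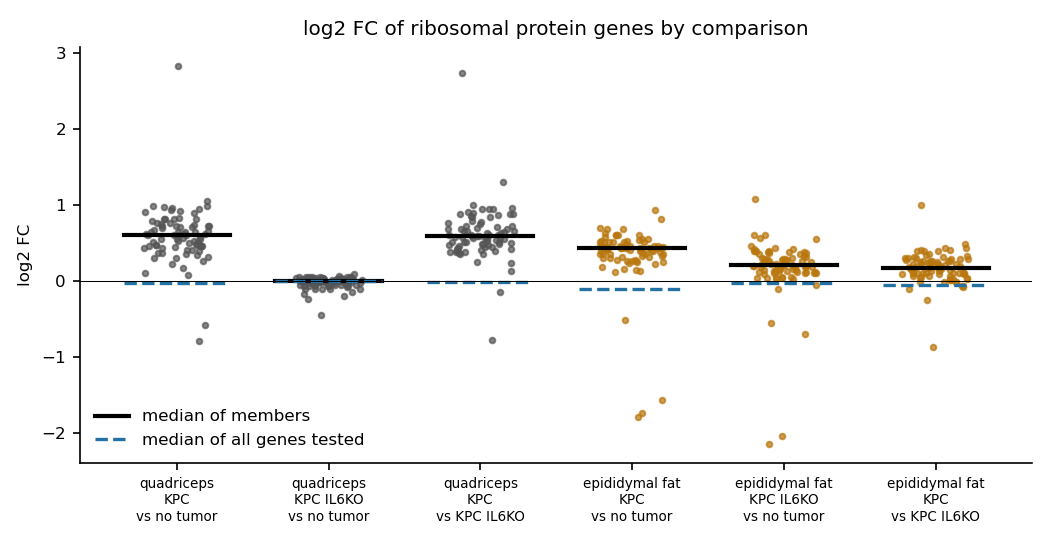
log2 FC (y axis) of every ribosomal protein gene, 1 point per gene, for the 3 comparisons in each tissue (x axis), with the median of the members and that of all genes. The members' medians are 0.61, 0.00 and 0.59 in quadriceps and 0.43, 0.21 and 0.17 in fat, in the order KPC vs no tumor, KPC IL6KO vs no tumor and KPC vs KPC IL6KO.

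The tissue-restricted paralogs stood apart in fat. Rpl3l measured 108, 5.64, 88.3 and 41.6 CPM in no tumor fat, 10.9, 16.2, 35.6 and 19.8 in KPC and 0.221, 71.5, 55.6 and 23.3 in KPC IL6KO. Muscle fiber markers (8 of 8 listed) summed to 9.66 to 293 CPM in no tumor fat, 6.95 to 11.6 in KPC and 103 to 2856 in KPC IL6KO. Their highest sum was in KPC IL6KO 8, where Rpl3l was 23.3 CPM. Epididymis markers had their lowest sum in KPC IL6KO 5 (750 CPM), where Rpl3l was also lowest at 0.221 CPM. The highest epididymis sum was in KPC IL6KO 6 (88644 CPM), where Rpl3l was 71.5 CPM, below its 108 CPM in no tumor 5. In KPC 6 the epididymis sum was 61527 CPM with Rpl3l at only 16.2 CPM. Which cells of the dissected fat expressed Rpl3l was not tested. Rpl10l, a retrocopy of Rpl10 known from testis, measured 0.819, 3.81, 6.35 and 27.6 CPM in no tumor, 0.642, 0.458, 9.8 and 0.683 in KPC and 0, 0.411, 6.21 and 2.11 in KPC IL6KO. Rpl39l, also known from testis, ran alongside it, with 27.4 CPM in no tumor 8, 9.7 in KPC 7 and 0 in KPC IL6KO 5, where a count of 0 allows up to 0.0736 CPM. The groups overlapped for all 3, with log2 FC of −1.56 (SE 1.13), −1.74 (SE 1.55) and −1.79 (SE 1.44) for KPC against no tumor.

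Other cells in the dissected fat varied as well. Epididymis markers summed to 80568, 13493, 67305 and 18357 CPM in no tumor, 38257, 61527, 41710 and 38439 in KPC and 750, 88644, 15676 and 10157 in KPC IL6KO, with the lowest sum in KPC IL6KO 5, the library with the highest share of ribosomal protein counts. Macrophage markers (6 of 6 listed) summed to 196 to 843 CPM in no tumor, 913 to 1519 in KPC and 336 to 2307 in KPC IL6KO. Neutrophil markers (5 of 5) summed to 2.79 to 6.37, 21.9 to 52.5 and 4.32 to 62.8 CPM, so that both lists were higher in KPC than in no tumor in every library, as the ribosomal proteins were. Alas2 was higher in every KPC library too, at 7.12 to 24.2 CPM in no tumor, 28.1 to 47.6 in KPC and 5.08 to 29.3 in KPC IL6KO. Fibroblast markers (5 of 5) overlapped at 1063 to 3275, 2713 to 5743 and 1500 to 5047 CPM, with a median log2 FC of 1.37 in KPC against no tumor. None of these genes were called in fat, and their part in the result was not tested.

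The lists of translation genes gave 0 calls in fat. Their median log2 FC for KPC against no tumor was 0.26 for ribosome assembly, 0.16 for RNA polymerase I, 0.10 for initiation factors and 0.30 for elongation factors, against 0.43 for the ribosomal proteins. Mitochondrial ribosomal proteins had a median of −0.06. In fat the ribosomal proteins thus had a higher median than the assembly and initiation lists, the reverse of quadriceps, a difference in order that was not tested.

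Whether KPC changed members differently in the tissues was tested as an interaction over the 12599 genes listed in both. For KPC against no tumor 1 of 79 members passed, Rps27, whose log2 FC was larger in quadriceps by 1.76 (SE 0.47, FDR = 0.0065), and 0 were lower, against 18.1% and 18.8% of all genes. DESeq2 called 2 higher, Rps27 and Rps20. At an unadjusted p under 0.05 there were 3 members, Rps27, Rps20 and Rps2, against 47.6% of all genes. The median difference was 0.05 with a median SE of 0.25, an SE wide enough to hide differences of the size of the members' own change. Rps2, at 0.60 (SE 0.26) in fat and 0.08 in quadriceps, had a difference of −0.63 (SE 0.29, FDR = 0.09).

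For KPC IL6KO against no tumor the interaction gave 0 calls by edgeR and DESeq2 (0% of all genes higher and 0% lower by edgeR). At an unadjusted p under 0.05 edgeR gave 1 member, Rpl34, against 7.96% of all genes, and DESeq2 gave 0. The median difference was −0.18 with a median SE of 0.25, and 73 of 79 members, which share libraries, were below 0. Over all 12599 genes the median was 0.00, with 6316 below 0. The fat side of this difference leans on 1 library, since the members' median log2 FC in fat was 0.21 and without KPC IL6KO 5 it was 0.07.

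Levels differed widely between members, as read per kb of transcript over all libraries of a tissue. Pooled over the groups, in quadriceps Rplp1 (737 CPM per kb), Rps14 (520) and Rpl4 (503) were highest and Rpl30 (1.33), Rps27 (4.26) and Rpl34 (7.41) lowest, around a median of 231 over 78 members. The place of Rpl4 came from KPC, where it averaged 721 CPM per kb against 370 in no tumor and 383 in KPC IL6KO, and in the latter groups Rps2 was above it (457 and 440). In fat Rpl10 (1175 CPM per kb), Rplp1 (1114) and Rps9 (949) were highest and Rpl30 (2.99), Rpl34 (3.77) and Rps27 (4.39) lowest, around a median of 441 over 80. Rpl30, at the bottom in both tissues, shares 65.1% of its windows with 12 other genes. Across 78 quadriceps members the level per kb and the share of windows had a Spearman's rho of −0.13.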

How the data were processed

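The authors aligned reads to mm10 with STAR, kept uniquely mapped reads and counted them per gene with featureCounts (Subread 1.5.1), and the deposited tables hold these raw counts, 1 table per tissue. Library kits are named differently in the labels and in the study's methods, and 1 no tumor muscle library was removed by the authors as an outlier and was not analysed here. Per the labels, RNA of muscle and of fat was isolated and sequenced separately, so tissue and sequencing run cannot be told apart.

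All genes of a table were fitted in edgeR 4.0.16 (R 4.3.3) with TMM factors, filterByExpr (which removed no gene) and the quasi-likelihood test over the 3 groups, with Benjamini-Hochberg FDR of at most 0.05 and FC of at least 1.5 as the call. The 2 tissues were joined for the interaction only. DESeq2 1.42.0 and the edgeR likelihood ratio test were alternatives, and the fits were tested on simulated data. Shares and paralog ratios were computed from the counts (Python 3.11.15, pandas 2.3.3), with exact permutation tests in scipy 1.17.1. Gene models were GENCODE M21 (GRCm38), and promoters were RefSeq windows (GRCm38.p6). The members and lists were chosen with earlier results of these data known. Named genes were the paralog pairs, 9 members with known roles (the P stalk, Rpsa, Rps6, Rps27a, Rpl5, Rpl11 and Rpl13a), the 3 highest and 3 lowest members by log2 FC in each comparison and by level in each tissue, members called against the main direction, and from each list the most abundant gene and those called where 5 or fewer were. Rpl22 and Rpl4 (shown for their start sites), Rps25, Rpl32, Rpl24, Rps28, Rps20, Rpl13, Rpl23a and the 3 listed regulators that fell were named after their values were seen where this rule does not cover them. A member and a listed gene that this rule covers are counted but not reported here by name or drawn.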

Additional observations from a re-analysis of the deposited data

Results flagged for a closer look

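In quadriceps, KPC 3 stood apart in the share of counts on ribosomal proteins, at 2.24% against 1.58% for the next KPC library, a gap of 0.875 of the group's range, past the limit of Dixon's test for 4 samples. Rps27l was low in KPC IL6KO 1, at 43.2 CPM against 45.3 for the next, a gap of 0.960 of a narrow range. In fat, Rpl10l was high in KPC 7, at 9.8 CPM against 0.683 (gap 0.976), and so was Rpl39l, at 9.7 against 1.5 (gap 0.907). In KPC IL6KO 5, Rpl13 was high at 397 CPM against 216 (gap 0.854), as was Rplp2 at 472 against 320 (gap 0.851). In all, 137 checks of this kind were made, and chance marks about 1 in 20 groups.

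Rps27 had a larger log2 FC of KPC against no tumor in quadriceps than in fat, by 1.76 (SE 0.47, FDR = 0.0065 by the edgeR quasi-likelihood interaction test). It rests on low counts in both tissues.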

How the results depend on the processing

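The count of members called in quadriceps followed the scaling and KPC 3, since the median change sits at the fold minimum. Of KPC against no tumor, 8 members were higher with upper quartile factors, 15 with library totals and 67 with FDR alone, and 18 to 50 with 1 library left out. The count lower was 2 without the legacy option of the quasi-likelihood fit, with at least 10 counts in every library, with upper quartile factors and with library totals, and 1 to 2 with 1 library left out. Of KPC against KPC IL6KO, 8, 22 and 74 members were higher in the same 3 settings and 19 to 54 with 1 library left out. The members' median was 0.27 with upper quartile factors in both comparisons, and −0.08 for KPC IL6KO against no tumor with library totals. With 1 library left out the medians were 0.43 to 0.69, 0.42 to 0.66 and −0.03 to 0.04 for KPC against no tumor, KPC against KPC IL6KO and KPC IL6KO against no tumor in quadriceps, and 0.36 to 0.49, 0.10 to 0.34 and 0.07 to 0.32 in fat. In fat DESeq2 called 2 members of KPC against no tumor. For the tissue difference of KPC, DESeq2 and RLE factors gave 2 higher, upper quartile factors 1 lower, and leaving out 1 library 1 to 2 higher and 0 to 1 lower. Without the 10 most counted genes the mean shares were 1.85%, 2.16% and 1.77% in no tumor, KPC and KPC IL6KO quadriceps and 3.88% in KPC fat.

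Signs turned for Rps2 of KPC against no tumor (−0.25 with upper quartile factors, −0.12 with library totals, without 1 library −0.04, without KPC 3, to 0.16) and against KPC IL6KO (−0.19 with upper quartile factors), for Rpl39 (−0.16 and −0.03) and Rplp1 (−0.03) of KPC against no tumor, for Rps27 of KPC IL6KO against no tumor (without 1 library −0.05, without no tumor 2, to 0.28, and −0.04 without KPC IL6KO 3), for Rpl37 and Rps27l (−0.01 each with library totals), and in fat for Rpl13 (without 1 library −0.21 to 0.21) and Rpl34 (−0.44 to 0.02) of KPC against KPC IL6KO, the upper values without KPC IL6KO 5. With a replicate block 42 members were higher and 1 lower for KPC against no tumor and 35 and 1 against KPC IL6KO, and 0 in fat, but same-numbered libraries correlated from −0.155 to 0.265 in quadriceps and from −0.539 to 0.650 in fat, so that the numbers do not pair them. A denominator without mitochondrially encoded genes was not run, as no counts of such genes were analysed here. The causes were not tested.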
